A study of Mus musculus with 3 samples.

Results

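The genes described are 7 matrix metalloproteinases, Mmp2, Mmp3, Mmp11, Mmp13, Mmp14, Mmp16, and Mmp23, and 3 of their tissue inhibitors, Timp1, Timp2, and Timp3. They were taken by symbol from the gene list of the deposited count matrices, and all 10 were found among its 32285 genes. Their levels were read in single cells of fracture callus that were high for Aspn, Cnmd, Col10a1, Ifitm5, or Rgs5 and had no UMI of Ptprc, the gene of the pan-leukocyte protein CD45, and in the Ptprc-positive cells of day 7.

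The cells came from callus of the fractured femur of untreated C57BL/6 mice, a common inbred laboratory strain, on day 7, day 10, and day 14 after fracture. Muscle and marrow were removed, the callus was digested with type I collagenase, and live cells negative for CD31, CD45, and TER119 were sorted, which should leave mesenchymal cells. Each day gave 1 droplet library, the mice carried no transgene, and the sources used here give neither their age nor how many were pooled. With no replicate library, no test was possible, the intervals printed cover counting error only, and a difference between days cannot be told apart from a difference between libraries, animals, or preparations. Within the study's limits on cell quality the libraries held 7017, 6593, and 9853 cells with 55187609, 113618580, and 154573230 UMIs, where a UMI tags 1 captured mRNA molecule. The day 7 library stood apart and went against its sort: 93.6% of its cells had a Ptprc UMI, against 0.0910% at day 10 and 1.76% at day 14, and its median depth was 5056 UMIs per cell against 17370 and 15802. Between 29 and 42 cell barcodes were shared by each pair of libraries.

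Matrix metalloproteinases are zinc-dependent enzymes that cut collagens and other matrix proteins outside the cell, and most are secreted or displayed as inactive proenzymes. TIMPs bind the active site of the enzymes and block it. In endochondral repair, cartilage matrix is removed as chondrocytes enlarge, and the collagenase MMP13 is known as a product of late hypertrophic chondrocytes and of osteoblastic cells. MMP14 at the cell surface, together with TIMP2, captures and activates proMMP2, so TIMP2 can act as an adaptor as well as an inhibitor.

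A cell was called high for a gene when it had at least 3 UMIs of it and reached 2000 counts per 1000000 UMIs of the cell (CPM) of Aspn, Cnmd, or Rgs5, 10000 CPM of Col10a1, or 1000 CPM of Ifitm5. Cells high for several of these genes were set apart. At day 10 and day 14 there were 1317 and 3082 Aspn-high, 2334 and 1298 Cnmd-high, 430 and 1077 Col10a1-high, 76 and 264 Ifitm5-high, and 70 and 182 Rgs5-high cells. Day 7 had 13, 47, 5, 1, and 0 such cells and 1 cell high for several, 67 cells in all, and 6570 Ptprc-positive cells. So its single gates are given levels and no ratio. The 67 cells, called the gated cells of day 7, were set against its Ptprc-positive cells only as a pool. Some of the listed markers that were not used for gating are given here, most of them only in their own gate. Postn and Ogn of fibroblastic osteoprogenitors were at 4123 and 1495 CPM in Aspn-high cells of day 10, Ucma and Col2a1 of chondrocytes at 1649 and 47021 CPM in Cnmd-high cells, Ihh of prehypertrophic and hypertrophic chondrocytes at 899 CPM in Col10a1-high cells, Bglap of osteoblasts at 8153 CPM in Ifitm5-high cells, and Mcam and Notch3 of pericytes at 385 and 384 CPM in Rgs5-high cells. Cspg4, also on the pericyte list, was no higher in Rgs5-high cells (304 CPM) than in Cnmd-high cells (374 CPM). The osteoclast genes Oscar, Ocstamp, Dcstamp, Atp6v0d2, and Calcr stood at no more than 0.750 CPM in any gated group of day 10 and day 14. Acp5, also an osteoclast gene, was higher. In Aspn-high cells of day 10 it stood at 20.7 CPM in the Mmp13-rich cells defined below and 24.8 CPM in the others. At day 14 the values were 16.3 and 26.0 CPM. In Col10a1-high cells Acp5 stood at 7.75 and 4.79 CPM at day 10 and 8.03 and 5.81 CPM at day 14. Neutrophil RNA was seen in day 7 gated cells, where S100a8 reached 678 CPM over the 67 cells, against at most 76.9 CPM in a gated group of day 14 and 1.10 CPM in one of day 10.

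In the GENCODE M21 annotation of GRCm38, the build the files use, all 10 are protein coding genes. Mmp13 (chr9:7272514-7283331, plus strand) and Mmp3 (chr9:7445822-7455975, plus strand) lie 162490 bases apart, in the cluster of secreted enzyme genes on that chromosome. Mmp2 lies at chr8:92827291-92853420 and Mmp14 at chr14:54431612-54445364, both on the plus strand, Mmp16 at chr4:17852893-18119145 on the plus strand, Mmp23 at chr4:155650655-155653384 on the minus strand, and Mmp11 at chr10:75923222-75936496 on the minus strand. Timp1 (chrX:20870166-20874735, plus strand) is nested in Syn1 and Timp3 (chr10:86300372-86349506, plus strand) in Syn3, each on the opposite strand, and Timp2 (chr11:118301069-118355740, minus strand) spans Cep295nl on its own strand. Timp3 shares 1733 exon bases with Syn3. Syn1, Syn3, and Cep295nl stood at no more than 6.19 CPM in any library. Mmp11 shares 155 exon bases with the opposite-strand gene Chchd10, which stood at 46.1 CPM in the day 7 library and 2.51 and 4.01 CPM in the others. Whether strand was used in counting is not given in the sources used here.

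The 250 bases before the RefSeq start (GRCm38.p6) are shown for the collagenase Mmp13, for its scarce neighbor Mmp3, and for the widely expressed Mmp14 and Timp2, because Mmp13 and Mmp3 hold the same 2 elements, AP-1 and a TATA box, and neither Mmp14 nor Timp2 holds them. Capitals mark matches, on either strand, to AP-1 (TGANTCA), RUNX (TGTGGT or ACCACA), the GC box (GGGCGG or CCGCCC), and the TATA box (TATAAA or TTTATA). Each line runs 5′ to 3′ on the strand of the gene, Mmp13 from chr9:7272264-7272513, Mmp3 from chr9:7445572-7445821, Mmp14 from chr14:54431348-54431597, and Timp2 from chr11:118355412-118355661 on the minus strand.
Mmp13: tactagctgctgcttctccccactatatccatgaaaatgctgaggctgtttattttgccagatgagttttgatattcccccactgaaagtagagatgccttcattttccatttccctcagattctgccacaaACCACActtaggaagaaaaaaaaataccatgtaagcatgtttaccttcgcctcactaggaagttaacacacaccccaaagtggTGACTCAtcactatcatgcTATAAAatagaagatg
Mmp3: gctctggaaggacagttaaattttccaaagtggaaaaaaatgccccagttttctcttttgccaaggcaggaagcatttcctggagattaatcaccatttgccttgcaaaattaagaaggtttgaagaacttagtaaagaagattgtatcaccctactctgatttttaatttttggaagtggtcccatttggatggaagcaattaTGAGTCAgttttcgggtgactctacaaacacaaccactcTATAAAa
Mmp14: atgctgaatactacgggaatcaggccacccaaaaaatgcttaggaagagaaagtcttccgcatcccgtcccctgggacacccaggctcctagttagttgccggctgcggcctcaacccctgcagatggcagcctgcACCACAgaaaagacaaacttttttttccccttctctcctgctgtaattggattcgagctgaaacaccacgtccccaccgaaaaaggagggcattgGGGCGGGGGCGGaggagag
Timp2: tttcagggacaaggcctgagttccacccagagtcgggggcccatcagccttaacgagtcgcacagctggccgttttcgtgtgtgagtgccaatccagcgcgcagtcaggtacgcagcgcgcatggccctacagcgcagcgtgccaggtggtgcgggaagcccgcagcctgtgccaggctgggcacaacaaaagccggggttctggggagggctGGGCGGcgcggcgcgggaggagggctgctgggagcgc
Counted from the first base of the match, the AP-1 letters stood 35 bases before the start in Mmp13 and 46 bases before it in Mmp3, in the forms TGACTCA and TGAGTCA, and were in none of the other member windows. A TATA box stood 16 and 7 bases before the same starts. RUNX letters were found 118 bases before the start of Mmp13, 114 before that of Mmp14, and 177 before that of Mmp23. GC boxes were in the windows of Mmp11, Mmp14, Timp1, Timp2, and Timp3. Windows were found for 8 of the 10 genes, without Mmp2 and Mmp16, and Mmp23 had 2. Of 32851 windows of the same length, 6.75% held the AP-1 letters, 14.0% the RUNX letters, 32.7% a GC box, and 12.4% a TATA box. A match describes letters only.

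Mmp13 had the widest range, among the gated groups of day 10 and day 14, of the 8 genes for which it could be computed. It stood at 5752 CPM (95% Poisson interval 5698 to 5807) in Col10a1-high cells of day 10 and 3842 (3814 to 3870) in those of day 14. Aspn-high cells followed at 580 and 954 CPM, then Ifitm5-high cells at 233 and 372 CPM. Rgs5-high cells had 30.7 CPM from 28 UMIs at day 10 and 294 CPM from 562 UMIs at day 14, and Cnmd-high cells had 52.0 and 107 CPM. The levels in Cnmd-high cells moved with the gate, to 89.4 and 170 CPM at 0.5 times its level and to 31.4 and 53.1 CPM at 2 times. Among the gated groups of day 10 and day 14, the highest level was 187 times the lowest. In the order of 11 groups, which adds the Ptprc-positive cells of day 7, the intervals reached the next group only at the bottom, between Rgs5-high cells of day 10 and the Ptprc-positive cells of day 7 at 25.5 CPM. The 5 Col10a1-high cells of day 7 held 323 Mmp13 UMIs, 2755 CPM, and the 13 Aspn-high and 47 Cnmd-high cells of that day had 140 and 4.14 CPM.

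**Figure D1:**
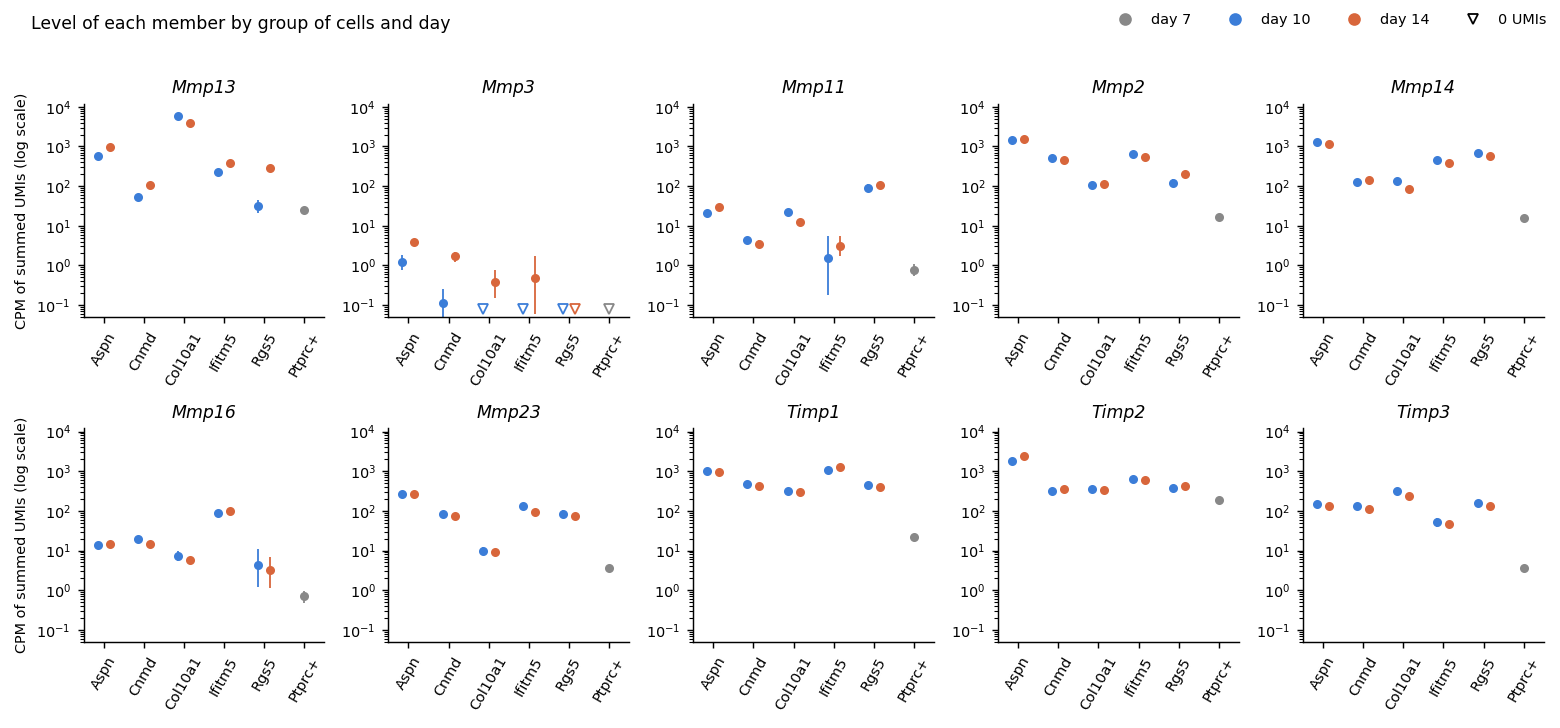
CPM of summed UMIs on a log axis for each of the 10 genes, by gate gene and for Ptprc-positive cells of day 7. Points are 1 library each and bars are 95% Poisson intervals. Mmp13 peaks at 5752 and 3842 CPM in Col10a1-high cells, Mmp11 at 92.1 and 108 CPM in Rgs5-high cells, Mmp16 at 86.2 and 96.3 CPM in Ifitm5-high cells, and Timp2 is the only member above 25.5 CPM in Ptprc-positive cells.

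Within a gate Mmp13 was uneven from cell to cell. In Col10a1-high cells the median cell had 2856 CPM at day 10 against 1316 in the later library, the 90th percentile had 16739 and 12356 CPM, and the 10% of cells with the most Mmp13 held 33.9% and 43.2% of its UMIs. In Aspn-high cells that share was 76.6% and 68.9%, and in Rgs5-high cells of day 14 it was 91.6%. After each cell was thinned to 2000 UMIs, 72.9% and 68.3% of Col10a1-high cells had an Mmp13 UMI, against 5.53% and 9.53% of Cnmd-high cells and 7.35% and 10.1% of Rgs5-high cells of the same libraries, at median depths before thinning of 17412 and 17607, 19281 and 21197, and 12522 and 9263 UMIs. Unthinned, the same shares were 85.1% and 88.8%, 31.6% and 51.0%, and 30% and 32.4%. A low share of this size in cells of several kinds can come from free RNA in the droplets, and its part was not tested.

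A cell with at least 5000 CPM and 3 UMIs of Mmp13 is called Mmp13-rich here, a cutoff chosen after the levels were seen, so what follows is a description. There were 430 such cells at day 10 and 1006 at day 14. They made up 40.9% of Col10a1-high cells at day 10 (176 of 430, Clopper-Pearson 95% interval 36.2 to 45.7) and 25.4% at day 14 (274 of 1077, 22.9 to 28.2). In Aspn-high cells the share was 2.89% and 5.48%, and in Cnmd-high cells 2 of 2334 and 5 of 1298 cells were rich. Another 212 rich cells at day 10 and 533 at day 14 were high for none of the gate genes, 9.77% and 14.6% of those cells, and cells high for none held 48.1% and 49.6% of all Mmp13 UMIs of the library.

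Among Col10a1-high cells, the Mmp13-rich cells held less of the inhibitor Timp3 and more Spp1, Tnfsf11, Csf1, and Mmp14. Timp3 stood at 115 CPM in rich cells against 445 CPM in the others at day 10 and at 79.5 against 287 CPM at day 14. Spp1, the gene of osteopontin, stood at 39963 against 14015 CPM and at 45838 against 25123 CPM. Tnfsf11, which encodes the osteoclast-inducing cytokine RANKL, stood at 176 against 31.2 CPM and at 143 against 27.6 CPM, and Csf1, which encodes the macrophage growth factor M-CSF, at 210 against 31.0 and 148 against 34.4 CPM. The membrane protease Mmp14 was at 213 against 75.9 CPM and at 164 against 57.5 CPM. The cartilage collagen gene Col2a1 went the other way, at 13221 against 33574 CPM and at 12686 against 22349 CPM. Genes of mineralizing cells were split. The bone sialoprotein gene Ibsp was lower in rich cells (21611 against 30549 and 14895 against 20945 CPM). The alkaline phosphatase gene Alpl was also lower (650 against 1114 and 590 against 892 CPM). The osteocalcin gene Bglap was higher (158 against 28.5 and 230 against 70.9 CPM). In cells high for none of the gate genes Bglap went the other way. It was at 31.7 CPM in rich cells against 373 CPM at day 10, and at 166 against 578 CPM at day 14. The higher Tnfsf11, Csf1, and Mmp14 of rich cells were not limited to Col10a1-high cells. They were also seen at both days in Aspn-high cells and in cells high for none. In the latter Tnfsf11 was at 110 against 29.98 CPM and at 97.5 against 18.5 CPM. Levels of different genes are set side by side here without a length correction, because a 3′ UMI is counted once per molecule whatever the length of the transcript. Other differences between genes in capture were not tested.

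Mmp13-rich cells that were high for none of the gate genes carried Mmp9, the gelatinase B gene, at 704 CPM against 16.6 CPM in the other cells high for none at day 10, and at 621 against 22.2 CPM at day 14. A UMI of Mmp9 was found in 19.8% and 25.9% of these rich cells and in 5.11% and 7.14% of the others. The osteoclast genes Oscar and Ocstamp were at no more than 0.398 CPM in the rich cells, Acp5 was at 14.2 against 12.5 and 15.8 against 12.6 CPM, Ctsk at 176 against 185 and 217 against 233 CPM, and Cd68, a macrophage gene, at 1.23 and 3.05 CPM. Spp1 was at 27493 against 6685 CPM and at 40148 against 14301 CPM. The Mmp9 difference was not seen in every group. Among Col10a1-high cells, Mmp9 was at 153 CPM in rich cells against 132 CPM at day 10, and 244 against 15.6 CPM at day 14. Among Aspn-high cells, the 38 rich cells of day 10 had 0 UMIs of it, against 2.80 CPM in the others. At day 14 rich Aspn-high cells had 44.3 against 4.26 CPM.

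With all cells without Ptprc placed in 6 ranges of Col10a1, Mmp13 was low where Col10a1 was low and high over the upper ranges. At day 10 it stood at 489, 671, and 878 CPM in cells with under 100, 100 to 1000, and 1000 to 3000 CPM of Col10a1, and at 2874, 5545, and 4611 CPM in cells with 3000 to 10000, 10000 to 30000, and 30000 CPM or more. At day 14 the values were 832, 1097, 2943, 3758, 4145, and 3120 CPM. Mmp2 ran the opposite way, from 800 to 93.7 CPM at day 10 and from 1024 to 79.7 CPM at day 14, and was lower in each range than in the range before it at both days. Timp3 was highest in the middle range of 1000 to 3000 CPM at day 10 (413 CPM, against 118 CPM in the lowest range) and in the range of 10000 to 30000 CPM at day 14 (259 against 114 CPM). The highest Col10a1 range had less Mmp13 than the range below it at both days, with intervals that did not overlap.

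**Figure D2:**
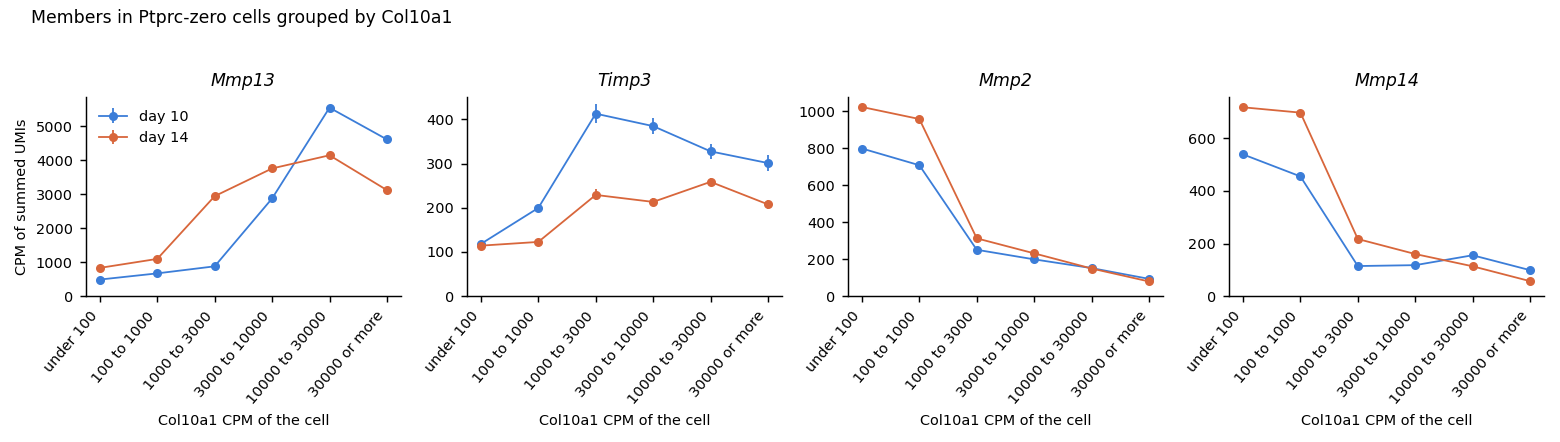
CPM of Mmp13, Timp3, Mmp2, and Mmp14 in cells without Ptprc, by the Col10a1 level of the cell, at day 10 and day 14. Bars are 95% Poisson intervals and each panel has its own linear axis from 0. Mmp13 reaches 5545 and 4145 CPM at 10000 to 30000 CPM of Col10a1, while Mmp2 and Mmp14 are lowest in cells with the most Col10a1, at 93.7 and 79.7 CPM for Mmp2 and 98.8 and 57.1 CPM for Mmp14.

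Ihh, the signal of early hypertrophic chondrocytes, was used to choose sets of cells from the 430 and 1077 Col10a1-high cells. Cells with some Ihh but under the limit given next were in neither set. Cells with at least 3 UMIs and 500 CPM of Ihh (234 and 556 cells) had 5076 and 3169 CPM of Mmp13, and cells with no Ihh UMI (56 and 121 cells) had 8073 and 6722 CPM. Mmp14 was 85.1 and 62.8 CPM in the former and 299 and 198 CPM in the latter. Timp1 was 257 and 222 CPM in the former and 476 and 665 CPM in the latter, so an inhibitor was also higher in cells without Ihh. Timp3 changed direction between days. It was 329 CPM with Ihh and 212 CPM without at day 10, and 176 and 239 CPM at day 14. The median depth was 17424 and 17345 UMIs with Ihh and 13602 and 14631 UMIs without.

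The stromelysin-type genes were scarce. Mmp3, stromelysin-1, gave 18, 66, and 512 UMIs in the 3 libraries, reached at most 3.87 CPM in a gated group (Aspn-high, day 14), and had 0 UMIs in 5 of the 11 groups. At 0 UMIs in the 6570 Ptprc-positive cells of day 7 the count allows up to 3 UMIs. Cells high for none of the gate genes had 5.12, 1.01, and 5.29 CPM and held 56.1% of its day 14 UMIs. Its few UMIs were concentrated: 37 of 9853 cells of day 14 held 71.7% of them, with 68 in 1 cell. Mmp11, stromelysin-3, which unlike most secreted MMPs leaves the cell already activated by furin, was highest in Rgs5-high cells, at 92.1 CPM (73.5 to 114) at day 10 and 108 CPM (93.9 to 124) at day 14, where the intervals overlapped. Aspn-high cells had 20.4 and 29.5 CPM, Col10a1-high cells 22.4 and 12.6 CPM, and Cnmd-high and Ifitm5-high cells no more than 4.29 CPM. 

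Mmp2, the gelatinase A gene, was broadly expressed and led in Aspn-high cells, at 1429 CPM (1412 to 1446) at day 10 and 1583 CPM (1571 to 1595) at day 14. Ifitm5-high cells had 649 and 539 CPM and Cnmd-high cells 511 and 459 CPM, and of these 4 values only those of Ifitm5-high cells at day 14 and Cnmd-high cells at day 10 had overlapping intervals. Rgs5-high cells had 123 and 202 CPM and Col10a1-high cells 106 and 111 CPM, the lowest of the gated groups, so the highest of these had 14.9 times the lowest. Ptprc-positive cells of day 7 had 16.3 CPM. Mmp2 was even among Aspn-high cells, where the median cell had 1394 and 1521 CPM and the 10% of cells with the most held 16.1% and 15.1% of its UMIs. After thinning, 91.0% and 92.8% of Aspn-high cells had an Mmp2 UMI, against 23.6% and 19.2% of Col10a1-high cells and 1.37% of the Ptprc-positive cells of day 7.

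Mmp14, the gene of the membrane-anchored collagenase MT1-MMP, had Aspn-high cells first and Rgs5-high cells second. It stood at 1313 and 1175 CPM in Aspn-high cells, 700 and 587 CPM in Rgs5-high cells, and 457 and 377 CPM in Ifitm5-high cells, with no overlap between neighbors in this order. Cnmd-high cells (124 and 139 CPM) and Col10a1-high cells (131 and 85.1 CPM) were lowest.

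Mmp16, which encodes another membrane-type enzyme, MT3-MMP, was highest in Ifitm5-high cells, at 86.2 CPM (71.2 to 103) and 96.3 CPM (87.0 to 106), and at 19.6 CPM or less in the other gated groups of these days. At day 7, 13 Aspn-high cells had 39.4 CPM from 9 UMIs and 47 Cnmd-high cells 37.3 CPM (26.1 to 51.6). A UMI was found in 57.9% and 54.9% of Ifitm5-high cells before thinning and 18.7% and 16.8% after it, against 2.44% and 2.97% of Aspn-high cells after thinning. Mmp23, whose product sits in the membrane until furin-type enzymes cut it off, followed Mmp2 in its leading group: 265 and 264 CPM in Aspn-high cells, with overlapping intervals, 135 and 91.9 CPM in Ifitm5-high cells, 74.7 to 83.7 CPM in Cnmd-high and Rgs5-high cells, and 9.93 and 8.99 CPM in Col10a1-high cells.

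Transcripts of the proMMP2 activation complex were found together in a larger share of Aspn-high cells than of any other group of day 10 or day 14. After thinning, 71.6% of Aspn-high cells at day 10 (69.0 to 74.0) and 75.8% at day 14 (74.2 to 77.3) had a UMI of Mmp2, of Mmp14, and of Timp2. The product of the 3 single shares was 71.1% and 74.1%. Ifitm5-high cells had all 3 in 28.0% and 18.7% of cells, Cnmd-high cells in 8.81% and 9.30%, Rgs5-high cells in 7.35% and 9.50%, Col10a1-high cells in 2.14% and 2.07%, and Ptprc-positive cells of day 7 in 0.210%. Cells high for none of the gate genes had all 3 in 30.5% and 30.4% (643 and 1064 cells, beside 939 and 2324 Aspn-high cells), and cells high for several in 34.0% and 40.6%. In Cnmd-high cells the product of the single shares was 5.82% and 6.20%.

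Among the gated groups of day 10 and day 14, the highest level was 4.18 to 7.32 times the lowest for the inhibitor genes and at least 14.9 times for the 5 protease genes for which a ratio was computed. Among these groups Timp1 was highest in Ifitm5-high cells, at 1055 CPM (1001 to 1112) and 1282 CPM (1248 to 1317), and in Aspn-high cells, at 993 and 956 CPM, and the intervals of Ifitm5-high and Aspn-high cells of day 10 overlapped. Cnmd-high cells had 488 and 433 CPM, Rgs5-high cells 456 and 406 CPM, and Col10a1-high cells 308 and 307 CPM, so the highest gated group had 4.18 times the lowest. Cells high for none of the gate genes had 1204 and 1068 CPM, and Ptprc-positive cells of day 7 had 21.6 CPM. Timp2 was the most abundant of the 10 genes in Aspn-high cells, at 1804 CPM (1785 to 1823) and 2384 CPM (2370 to 2399), while the other gated groups lay between 326 and 633 CPM. Timp3, whose product binds to the matrix, was the only inhibitor with Col10a1-high cells at the top, at 312 CPM (299 to 325) and 233 CPM (226 to 240). Rgs5-high, Aspn-high, and Cnmd-high cells lay between 109 and 159 CPM, several of them with overlapping intervals, and Ifitm5-high cells had 51.0 and 46.9 CPM. Timp3 was uneven in Col10a1-high cells, where the 10% of cells with the most held 58.9% and 61.1% of its UMIs. The 5 Col10a1-high cells of day 7 had 253 Timp3 UMIs, 2158 CPM.

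The share of the 3 inhibitors among the summed UMIs of all 10 genes was 44.9% and 46.3% in Aspn-high cells, 54.4% and 52.7% in Cnmd-high cells, 52.7% and 56.5% in Ifitm5-high cells, and 49.2% and 43.1% in Rgs5-high cells. In Col10a1-high cells it was 13.9% (13.6 to 14.2) and 17.9% (17.6 to 18.1), and without Mmp13 it was 77.8% and 79.8%. The summed level of the 10 genes was of similar size in Aspn-high cells (6569 and 7496 CPM) and Col10a1-high cells (7001 and 4950 CPM), and Mmp13 made up most of it in the latter. mRNA shares say nothing of the amount of active enzyme.

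**Figure D3:**
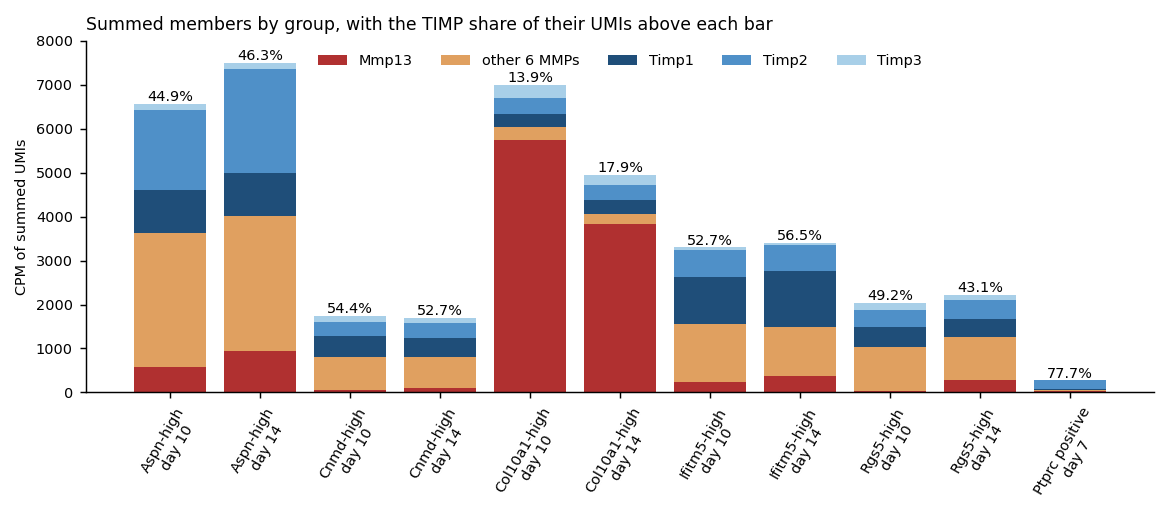
Summed CPM of the 10 genes in each group, split into Mmp13, the other 6 MMPs, and Timp1, Timp2, and Timp3, with the inhibitor share printed above each bar. Col10a1-high cells have the lowest inhibitor shares, 13.9% and 17.9%, under a large Mmp13 segment, and Ptprc-positive cells have the smallest sum and a share of 77.7%.

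Groups were compared in 4 pairs within each day, over genes with at least 50 CPM in either group, and a ratio of at least 2 in either direction was counted as past. In Cnmd-high against Aspn-high cells, the chondrocyte gate against the fibroblastic gate, 6 of 7 members that reached the level were at least 2-fold lower at day 10 and the same number at day 14, against 23.0% and 24.1% of all genes compared in either direction. Mmp13 was lower 11.2-fold and 8.90-fold, Mmp14 10.6-fold and 8.46-fold, Timp2 5.54-fold and 6.80-fold, Mmp23 3.16-fold and 3.52-fold, Mmp2 2.79-fold and 3.45-fold, and Timp1 2.03-fold and 2.21-fold. The day 10 interval of the Timp1 ratio reached across the 2-fold limit, and the ratio was 1.91 where gates could overlap and 1.97 as a mean over cells. Timp3 differed by 1.13-fold and 1.20-fold. The median log2 ratio of the 7 was -1.66 and -1.82, and that of all genes -0.26 and -0.24.

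In Col10a1-high against Cnmd-high cells, 4 of 7 members passed at both days, against 24.1% and 21.4% of all genes. Mmp13 was higher 111-fold at day 10 and 35.9-fold at day 14, and Timp3 was higher 2.35-fold and 2.14-fold. Timp3 fell short of 2-fold at 0.5 times the gate levels (1.66-fold at both days) and, at day 14, at 2 times (1.88-fold), and the Mmp13 ratios have the gate-dependent Cnmd-high levels above as their base. Mmp2 was lower 4.81-fold and 4.13-fold and Mmp23 8.43-fold and 8.34-fold. Mmp23 reached 50 CPM only in Cnmd-high cells. With 9.93 and 8.99 CPM in Col10a1-high cells, it could be compared only if it passed. Timp2 was close to even, with ratios of 1.08 and 0.982, Timp1 was lower 1.58-fold and 1.41-fold, and Mmp14 had ratios of 1.06 and 0.613. The median log2 ratio of the 7 was 0.08 and -0.50, and that of all genes 0.09 and -0.03.

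In Ifitm5-high against Aspn-high cells, 6 of 8 members passed at day 10 and 7 of 8 at day 14, against 23.7% and 24.9% of all genes. Mmp16 was the member that was higher, 6.17-fold and 6.47-fold. It reached 50 CPM only in Ifitm5-high cells. With 14.0 and 14.9 CPM in Aspn-high cells, it could be compared only if it passed, so its place in the count was fixed by the level limit. Timp2 was lower 2.85-fold and 4.002-fold, Mmp14 2.87-fold and 3.11-fold, Timp3 2.94-fold and 2.79-fold, Mmp13 2.49-fold and 2.56-fold, and Mmp2 2.20-fold and 2.94-fold. The Mmp13 ratio hung on the gate: at 0.5 times the gate levels Ifitm5-high cells had 627 and 586 CPM of Mmp13, 1.18-fold and 1.87-fold less than Aspn-high cells, and at day 10 it was also under 2-fold where gates could overlap (1.83) or as a mean over cells (1.96). Mmp23 was lower 1.96-fold and 2.88-fold and passed at day 14. Timp1 had ratios of 1.06 and 1.34. Most of these ratios lay between 2 and 3, and with 3-fold as the limit 1 and 3 members passed.

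In Rgs5-high against Aspn-high cells, 6 of 8 members passed at day 10 and 7 of 8 at day 14, against 23.3% and 23.9% of all genes. Mmp11 was the member that was higher, 4.51-fold and 3.67-fold. It reached 50 CPM only in Rgs5-high cells. With 20.4 CPM in Aspn-high cells of day 10, it could be compared at that day only if it passed. Mmp2 was lower 11.6-fold and 7.85-fold, Mmp13 18.9-fold and 3.25-fold, Timp2 4.70-fold and 5.71-fold, Mmp23 3.18-fold and 3.54-fold, and Timp1 2.18-fold and 2.36-fold. Mmp14 was lower 1.88-fold and 2.00-fold, and its interval at day 14 and that of Timp1 at day 10 reached across the 2-fold limit, and Timp3 had ratios of 1.06 and 1.03. The day 14 ratio of Mmp14 was between 1.91 and 1.99 where gates could overlap, without the cell limits, without the upper limit on genes, or without Scrublet calls, and the day 10 ratio of Timp1 was 1.74 at 2 times the gate levels and 1.86 where gates could overlap. Emcn, an endothelial gene, was at 55.9 and 32.9 CPM in Rgs5-high cells and at no more than 0.213 CPM in the other gated groups, while Cdh5 and Kdr had 0 UMIs there, and its part in the result was not tested.

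**Figure D4:**
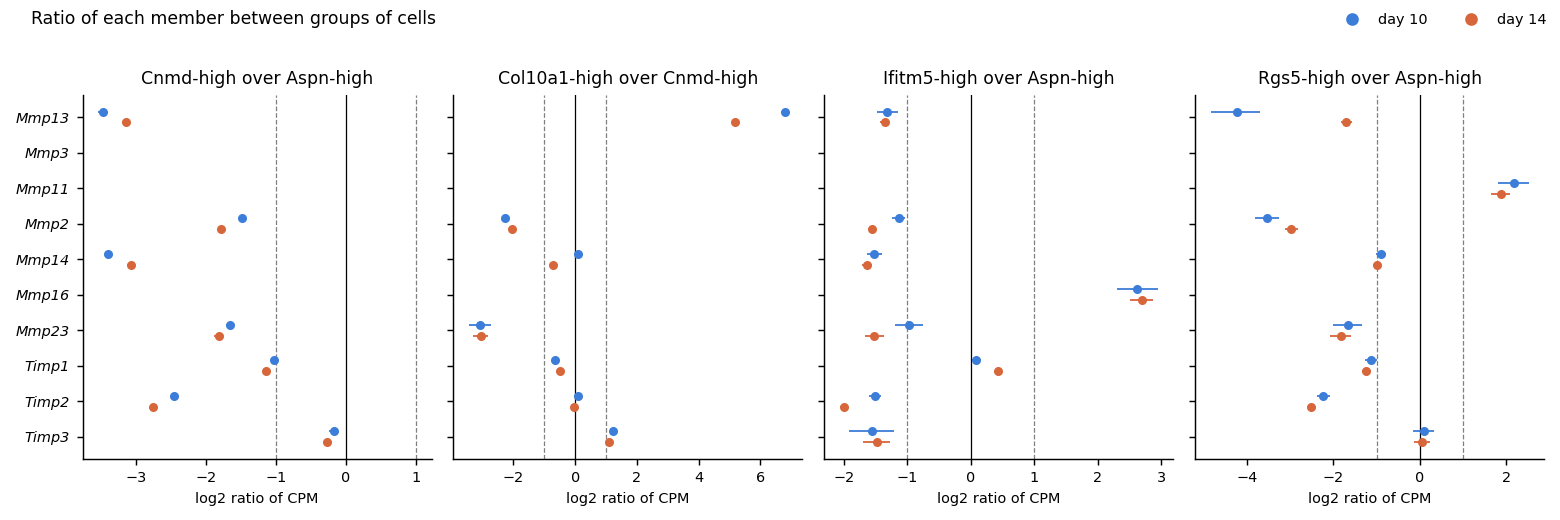
Log2 ratio of CPM between groups of cells for members with at least 50 CPM in either group, at day 10 and day 14, with 95% intervals from counting and dashed lines at 2-fold. Each panel has its own axis. Mmp13 stands at 6.79 and 5.16 in Col10a1-high over Cnmd-high cells, and Mmp16 and Mmp11 are the members to the right of the 2-fold line against Aspn-high cells. Mmp16 and Mmp11 each reached 50 CPM only in the group where they are higher.

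Between day 14 and day 10, few members differed within a gate. None of 7 members reached 2-fold in Aspn-high cells, none of 6 in Col10a1-high cells, and none of 8 in Ifitm5-high cells, against 0.826%, 1.12%, and 1.67% of all genes. In Cnmd-high cells 1 of 7 passed, Mmp13 at 2.06-fold higher (1.95 to 2.18), against 1.87% of all genes, and the ratio was 1.90 and 1.69 with gate levels at 0.5 and 2 times the main ones, 1.81 without cell limits, and 1.82 without the upper limit on genes per cell. In Rgs5-high cells 1 of 8 passed, Mmp13 at 9.56-fold higher (6.54 to 14.5), against 2.81% of all genes. The ratio in Rgs5-high cells rested on few cells: without the 10% of cells with the most Mmp13, they held 14 UMIs (16.7 CPM) at day 10 and 47 UMIs (27.7 CPM) at day 14, a ratio of 1.65. In Cnmd-high cells without their top 10% the levels were 13.03 and 27.4 CPM, and the ratio stayed above 2-fold. In Rgs5-high cells the skeletal genes Ibsp (123 CPM at day 10, 1386 at day 14) and Col2a1 (413 and 1183 CPM) were also higher at day 14, and their part in the Mmp13 ratio was not tested. Below 2-fold, Timp2 was 1.32-fold higher in Aspn-high cells at day 14, Mmp13 was 1.64-fold higher there and at 0.668 of its day 10 level in Col10a1-high cells, and Timp3 lay between 0.748 and 0.921 of its day 10 level in all 5 gates, although in Cnmd-high cells the ratio was 1.22 at 2 times the gate levels.

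**Figure D5:**
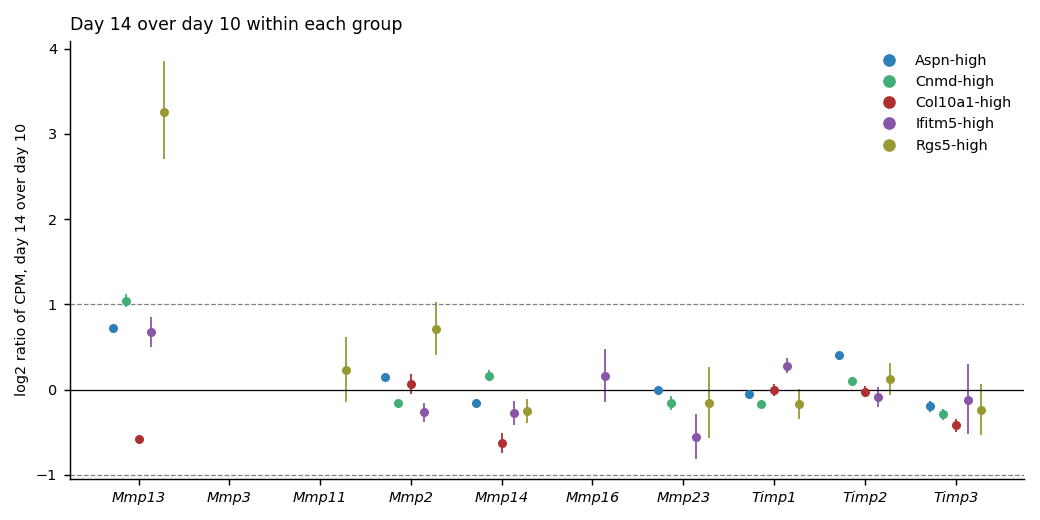
Log2 ratio of CPM at day 14 over day 10 for each member with at least 50 CPM in either day, by gate, with 95% intervals from counting. Dashed lines mark 2-fold. Mmp13 in Rgs5-high cells at 3.26 stands apart from all other points, and 1 library stands behind each day.

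In the Ptprc-positive cells of day 7, Timp2 was the single member with a substantial level, 192 CPM (188 to 196) from 9652 UMIs. A UMI was found in 62.7% of the cells, and in 38.0% after thinning. The other members were at 25.5 CPM (Mmp13), 21.6 CPM (Timp1), 16.3 CPM (Mmp2), 15.7 CPM (Mmp14), and 3.60 CPM or less. Cells with a UMI of Csf1r, a receptor gene of monocytes and macrophages, had 226 CPM of Timp2 (1192 cells), cells with a UMI of the B cell gene Cd79a had 57.7 CPM (239 cells), and cells with neither had 192 CPM (5131 cells). After thinning, 41.1%, 12.6%, and 38.5% of these cells had a Timp2 UMI. These sets are no cell types: a UMI of the neutrophil gene S100a8 was found in at least 99.6% of each, at 82631, 35273, and 118813 CPM, and Mmp8 stood at 2051, 535, and 2211 CPM. Which part of the Timp2 UMIs came from free RNA was not tested. In the 4708 cells with no UMI of Col1a1, a mesenchymal collagen gene, Timp2 was 207 CPM, while Mmp2 was 3.77, Mmp13 3.80, Mmp14 1.39, and Timp1 3.80 CPM. In the 5824 cells with at least 3 UMIs of Ptprc Timp2 was 195 CPM. The 67 gated cells of day 7 had 424 CPM of Timp2, 2.21 times as much, and 650 CPM of Mmp2, 332 CPM of Timp3, and 464 CPM of Mmp14, 40.0, 92.3, and 29.6 times as much. Of the 448 Timp3 UMIs of the 67 cells, 253 came from the 5 Col10a1-high cells, so the Timp3 ratio rested largely on few cells. The abundant proteases of the Ptprc-positive cells were other family members, Mmp8 at 2113 CPM, Mmp9 at 1883 CPM, and Mmp25 at 223 CPM, the collagenase, gelatinase, and membrane-type enzyme of neutrophils, in cells where S100a8 stood at 109259 CPM.

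Of 35 further genes of the system, 34 were in the gene list and 14 reached 50 CPM in a group of at least 50 cells. Among the other MMPs and Timp4, 3 of 16 did so, Mmp8, Mmp9, and Mmp25. Mmp9 was at 141 and 74.6 CPM in Col10a1-high cells and at no more than 46.5 CPM in the other gated groups. The proprotein convertase gene Pcsk6 was at 522 and 493 CPM in Col10a1-high cells and 217 and 199 CPM in Ifitm5-high cells, while Furin, the convertase that activates MMP14 and MMP11, ran evenly from 31.3 to 52.6 CPM. Serpine2, which encodes protease nexin 1, an inhibitor of plasminogen activators, was at 3563 and 3092 CPM in Rgs5-high cells. Plat, tissue plasminogen activator, reached 137 CPM there at day 10. Bsg, the MMP inducer basigin, was highest in Cnmd-high cells (1049 and 1099 CPM). The clearance receptor Lrp1 (339 and 357 CPM), the collagen-degrading cathepsin Ctsk (540 and 632 CPM), and Fap (120 and 125 CPM) were highest in Aspn-high cells. Plaur, the urokinase receptor gene, and Cd44, the hyaluronan receptor gene, were highest in Ptprc-positive cells of day 7, at 174 and 413 CPM. Of the genes compared in Cnmd-high against Aspn-high cells, 4 of 10 and 5 of 9 were at least 2-fold lower and none was higher, where 15.5% and 16.4% of all genes were lower and 7.58% and 7.74% higher. In Col10a1-high against Cnmd-high cells, 4 were higher and 1 lower of 11 at day 10, and 3 were higher and 1 lower of 8 at day 14, where 12.5% and 9.04% of all genes were higher and 11.6% and 12.4% lower, with Mmp9, Pcsk6, and Serpine2 higher and Ctsk lower at both days. Mmp9 was compared only through its level in Col10a1-high cells, since Cnmd-high cells had 1.07 and 2.56 CPM. In Ifitm5-high against Aspn-high cells, Pcsk6 and Serpine2 were higher and Cd44, Ctsk, Lrp1, and Plat lower at both days, of 11 and 9 genes, where 23.7% and 24.9% of all genes passed in either direction. In Rgs5-high against Aspn-high cells, Serpine2 was higher and Ctsk and Plaur lower at both days, and Plat was higher at day 10, where 23.3% and 23.9% of all genes passed in either direction. Between days, Plaur was lower at day 14 in Cnmd-high cells (1 of 7, where 1.38% of all genes were lower), and none of 10, 9, and 7 genes passed in Aspn-high, Col10a1-high, and Ifitm5-high cells.

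The genes whose pattern over the 11 groups was most like that of each member were named by the correlation of log2(CPM + 10) among 2720 genes, as a description over groups that share libraries. Mmp2 was nearest to Scarf2 (Pearson's r 0.989, Spearman's rho 0.982), Timp2 to Pdlim4 (0.978 and 0.873) and Lrrc15 (0.976 and 0.964), Mmp23 to Rnase4 (0.969 and 0.836) and Mrc2 (0.969 and 0.955), and Mmp14 to Man1a2 (0.980 and 0.936). Mmp16 was nearest to Kcnk1 (0.957 and 0.864), Mmp11 to Sptan1 (0.981 and 0.909), Timp1 to Yif1b (0.996 and 0.964), and Timp3 to Hmgn1 (0.976 and 0.918). Mmp13 had the weakest nearest gene of those above 50 CPM, Rhod (0.888 and 0.809).

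Within the gate and day where each member was highest, the cells richest in it were set against the cells with least of it, as a description. Among Col10a1-high cells of day 10, the 107 cells richest in Mmp13 had 41.4 times the Lpl, 16.4 times the Esm1, and 12.9 times the Tnfsf11 of the 215 poorest. The 107 cells richest in Timp3 had 8.96 times the Crispld1, 4.12 times the Ucma, and 3.69 times the Matn1, and the last pair are cartilage matrix genes. Among Aspn-high cells of day 10, the 329 cells richest in Mmp14 had 3.88 times the Mmp13 of the 658 poorest, and the 329 richest in Mmp23 had 3.27 times the Bglap, an osteoblast gene. Among Aspn-high cells of day 14, the 770 cells richest in Timp2 had 3.49 times the tendon gene Tnmd of the 1541 poorest, and the 770 richest in Mmp2 had 2.23 times the Igf1. Among Ifitm5-high cells of day 14, the 66 cells richest in Timp1 had 2.29 times the osteocyte gene Dmp1 of the 132 poorest, and the 66 richest in Mmp16 had 2.71 times the Bglap. Among Rgs5-high cells of day 14, the 45 cells richest in Mmp11 had 25.2 times the Cxcl9, 18.3 times the Hp, and 6.29 times the Ly6a of the 91 poorest. These ratios come from few cells of 1 library and low levels in the poorest cells. Cxcl9 was at 155 against 6.15 CPM, Hp at 564 against 30.8 CPM, and Ly6a at 174 against 27.7 CPM. Median depth differed most between the sets for Mmp2, at 11595 UMIs in the richest against 15413 in the poorest cells, and for Timp1, at 17854 against 13457 UMIs, and its part was not tested.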

How the data were processed

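Single-cell 3′ RNA libraries of callus cells, 1 per day, were analysed. The deposited matrices hold UMI counts per gene and cell, not normalized. Per the labels, Cell Ranger 3.0 and mm10 were used, the matrix headers give software version 3.1.0, and the study's methods name another release of the software and the kit. The study's limits (500 to 5000 genes, up to 10% mitochondrial and 5% hemoglobin UMIs) had not been applied to the deposited cells and were applied here. UMIs were summed per group and divided by the group's total (CPM), with exact 95% Poisson intervals, and shares carry Clopper-Pearson intervals. Intervals and floors (3 UMIs) cover counting error only. Ratio intervals condition on the summed UMIs. Groups under 50 cells got no ratio, since 1 library per day allows no test. Shares of cells with a UMI were taken after thinning to 2000 UMIs, leaving out shallower cells. No doublet caller was used in the main values. All 10 members were named, further genes of the system when at least 50 CPM in a group of at least 50 cells, and the 3 genes most like each member among genes with 100 CPM or more. Within a gate, the named genes are those with the largest ratios, among genes of 100 CPM or more, between the 25% of cells highest in a member and the 50% lowest. The list of further genes includes 1 whose values are not reported here. The members and lists were chosen with earlier results of these data known. Alternatives covered gate levels, overlap of gates, cell limits, Ptprc, weighting of cells, doublets, the fold, and thinning. Python 3.11.15, numpy 2.4.6, scipy 1.17.1, pandas 2.3.3, scanpy 1.11.5, anndata 0.12.19, and matplotlib 3.10.9 were used, and the ratio code was tested on simulated data.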

Additional observations from a re-analysis of the deposited data

Results flagged for a closer look

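Mmp13 went in opposite directions between day 10 and day 14 in Rgs5-high and Col10a1-high cells. In Rgs5-high cells its level at day 14 was 9.56 times that at day 10 (6.54 to 14.5), and in Col10a1-high cells it was 0.668 of it (0.660 to 0.676), so the folds differed 14.3-fold. The difference was not tested, because each day is 1 library. Without the 10% of cells with the most Mmp13, Rgs5-high cells of day 10 had 16.7 CPM and those of day 14 had 27.7 CPM.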

How the results depend on the processing

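No paired analysis was possible because each day is 1 library, and for the same reason no replicate could be left out. Of 126 recomputed counts of members past 2-fold, 118 stayed within 1.5 times the main count, among them counts of 0 that stayed at 0. Single values moved more often. Outside the counting interval of the main value lay 267 of 833 recomputed ratios, 311 of 992 levels, and 43 of 99 inhibitor shares. So did 188 of 220 shares of cells with a UMI, taken without thinning or at 5000 UMIs. With 3-fold as the limit, the count in Ifitm5-high against Aspn-high cells went from 6 to 1 at day 10 and from 7 to 3 at day 14. The count between days in Cnmd-high cells went from 1 to 0 with gate levels at 0.5 or 2 times the main ones, without cell limits, without the upper limit on genes, and with 3-fold as the limit. That in Rgs5-high cells went from 1 to 2 where gates could overlap. Of 641 recomputed levels of at least 50 CPM, 9 moved over 1.5-fold, all of Mmp13, among them Rgs5-high cells of day 14 (294 CPM, 180 as a mean over cells, 135 without the 5% of cells with the highest Scrublet scores, an alternative chosen after seeing the data) and Ifitm5-high cells of day 10 (233 CPM, 627 at the lower gate level), with Cnmd-high cells of both days and Ifitm5-high cells of day 14 moving with the gate level. The inhibitor share in Ptprc-positive cells went from 77.7% to 59.7% without the upper limit on genes. Scrublet called 0, 3, and 3 cells and so had not worked. Ifitm5-high cells of day 10 at the higher gate level and Rgs5-high cells of day 10 at the lower one numbered under 50 and gave no ratio. The causes were not tested.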
